A study of Drosophila melanogaster with 8 samples.

Results

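The beat, side, Dscam, teneurin and Toll genes encode cell-surface and secreted proteins through which Drosophila neurons recognise each other. All genes of the dm6 annotation whose symbol begins with beat-, side-, Dscam, Ten- or Toll- were taken, with the genes side, Tl and 18w. This gave 34 of 18164 genes, namely 14 beat, 8 side, 4 Dscam, 2 teneurin and 6 Toll genes. Chromatin accessibility was read from ATAC-seq, in which the Tn5 transposase cuts open DNA, as peaks within each gene body or up to 1 kb on either side. The 34 windows held 306 accessible regions, out of 12473 regions within 1 kb of any gene.

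The neurons came from adult central brains with the optic lobes removed. Flies were of strain w1118, were 2 to 7 days old and in all groups carried the driver Fru-GAL4 over a TM2 or TM6B balancer, the membrane reporter UAS-mCD8-GFP and the repressor MB247-Gal80. GFP therefore marked neurons that transcribe fruitless (fru), and the sorted GFP+ neurons are called male fru+ and female fru+ and the sorted GFP- neurons male fru- and female fru-. The protein FruM is made from fru transcripts in males and not in females. The GAL80 transgene silences GFP in Kenyon cells, so fru-transcribing Kenyon cells fell in the fru- populations, male fru- included. Each population had 2 replicates of pooled brains, and the authors deposited 1 peak list per population.

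Because each population had 1 list, no replicate spread could be computed and no test between populations was possible. All differences below compare lists, and the 95% Wilson intervals cover counting error only. The lists held 11206 to 11602 peaks. Their genome background, which follows depth, was 18.0 fragments in male fru+ and 14.3 in female fru+, against 18.9 in male fru- and 16.4 in female fru-, and the lowest fold enrichment reached at that background lay between 1.96 and 2.10. The free-text descriptions of the female fru+ and male fru- samples each named the other population, whereas titles and file names did not. The X held 15.0% of male fru+ peaks, 20.3% of female fru+ peaks, 14.9% of male fru- peaks and 20.1% of female fru- peaks, and the groups here follow the titles. The names of the peaks give replicate 1 for the male lists and replicate 2 for the female ones, so that, should they be right, sex cannot be told apart from the sorting session. All 6 neuronal marker genes tested had peaks in every list, while the glial genes repo and moody and the photoreceptor gene ninaE had none in any list. Over their whole lists, the 6 glial genes held 4 peaks in male fru+ and 3 in female fru+, against 5 in male fru- and 5 in female fru-, and the 4 photoreceptor genes held 3 in each. The fru gene had 17 peaks in male fru+ and 13 in female fru+, against 7 in male fru- and 6 in female fru-.

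Beat proteins bind Side proteins, and the best-known pair, Beat-Ia on motor axons and Side on their targets, steers axons out of their bundle. Side-IV and Side-VI bind Beats of the II and V groups in the same way. Dscam1 makes a very large number of splice forms that let branches of 1 neuron avoid each other, and Dscam2 keeps branches of neighbouring neurons apart. The teneurins Ten-m and Ten-a match synaptic partners, for example in the olfactory system. Toll (Tl) patterns the embryo and serves immunity, and Toll-6 and Toll-7 are receptors for neurotrophins. Accessible regions at such genes mark their promoters and candidate regulatory elements, and accessibility is not itself a measure of expression.

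The regions that separated the populations were mostly weak intronic peaks, and 6 of them are shown here as examples of the patterns that the results turn on. Each is the dm6 plus strand, within 100 bases of the summit of the strongest peak and inside the region. Capitals mark matches on either strand to the letters GAGAG (the core bound by GAGA factor), CAGCTG (an E-box) or TAATTA (a homeodomain core), and all other bases are in lower case. The first, at chr2L:16017380-16017580, lies in an intron of beat-Ic and was held only by the male fru+ list.
beat-Ic, male fru+ only: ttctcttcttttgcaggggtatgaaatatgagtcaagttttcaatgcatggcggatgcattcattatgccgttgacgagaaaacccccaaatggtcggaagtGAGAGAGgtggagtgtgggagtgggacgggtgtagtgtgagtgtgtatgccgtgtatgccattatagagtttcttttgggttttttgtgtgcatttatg
The next pair, at chr3L:7182291-7182491 in a coding exon of Dscam2 and at chr3R:26817824-26818024 in an intron of Tl, were absent only from the male fru+ list.
Dscam2, absent from male fru+: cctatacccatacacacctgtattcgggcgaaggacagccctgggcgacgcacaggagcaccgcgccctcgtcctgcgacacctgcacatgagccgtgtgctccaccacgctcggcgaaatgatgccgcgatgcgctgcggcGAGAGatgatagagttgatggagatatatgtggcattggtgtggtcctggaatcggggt
Tl, absent from male fru+: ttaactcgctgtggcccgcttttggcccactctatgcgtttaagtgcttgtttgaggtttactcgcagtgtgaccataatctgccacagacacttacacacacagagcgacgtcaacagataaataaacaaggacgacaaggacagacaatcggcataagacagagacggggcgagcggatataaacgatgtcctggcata
The intronic stretch of side-III at chr3R:5946336-5946466 was held by both fru+ lists and by neither fru- list.
side-III, both fru+: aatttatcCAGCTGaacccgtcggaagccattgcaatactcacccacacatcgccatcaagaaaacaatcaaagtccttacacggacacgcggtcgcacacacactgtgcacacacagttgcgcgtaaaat
The intronic stretch of Ten-m at chr3L:22341284-22341484 was held by both male lists alone, and that of Ten-a at chrX:12178839-12179029 by both female lists alone.
Ten-m, both male: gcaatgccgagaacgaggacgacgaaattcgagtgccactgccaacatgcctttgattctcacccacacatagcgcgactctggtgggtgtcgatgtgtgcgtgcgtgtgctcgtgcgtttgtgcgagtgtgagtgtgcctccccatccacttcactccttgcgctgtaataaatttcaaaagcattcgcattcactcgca
Ten-a, both female: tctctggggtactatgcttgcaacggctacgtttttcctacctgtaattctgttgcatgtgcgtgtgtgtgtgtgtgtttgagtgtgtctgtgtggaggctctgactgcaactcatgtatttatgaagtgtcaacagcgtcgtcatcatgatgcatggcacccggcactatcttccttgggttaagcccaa

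Of these 6 stretches, beat-Ic held 2 overlapping GAGAG matches, Dscam2 held 1 GAGAG and side-III held 1 CAGCTG. Over 201 bases around the summit, GAGAG was present in 95 of the 306 regions (31.0%, 95% Wilson interval 26.1 to 36.4), against 32.6% of all 14709 regions. CAGCTG was present in 49 (16.0%, 12.3 to 20.5), against 14.7% of all regions, and TAATTA in 19 (6.21%, 4.01 to 9.49), against 6.40%. The regions of these genes thus held each of the 3 motifs at about the share of all regions. A match describes letters and not a bound site.

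The promoters were where the populations were most alike. Of the 34 genes, 32 had a region within 50 bp of 1 of their own start sites in all 4 lists, and 43.6% of protein-coding genes did. The 34 promoter regions of these 32 genes (beat-IIb and Ten-a had 2 each) were strong, with a median strength of 98.7, where strength is the percentile rank of -log10 q within a list. In 28 of the 34 the rank was above 90 in every list. Promoter regions of any gene that were held by all 4 lists had a median strength of 77.9. The median fold enrichment over the 34 was 11.0 in male fru+ and 10.7 in female fru+, against 11.0 in male fru- and 11.5 in female fru-. Across the 4 lists, the highest fold exceeded the lowest by a median factor of 1.11 at these promoters, and by 1.20 at 4916 promoter regions of all genes.

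Each family had such a promoter. The strongest of the beat family lay at beat-Ic (chr2L:15999858-16001077), with 14.2-fold enrichment in male fru+ and 13.3-fold in female fru+, against 14.0 in male fru- and 13.7 in female fru-. That of the side family lay at side-II (chr2L:14971759-14973097), with 12.0, 12.2, 13.2 and 12.1 in the same lists. The Dscam2 promoter (chr3L:7189551-7190207) had 9.58, 8.69, 9.27 and 8.74, and the promoter of 18w (chr2R:20110474-20111983) had 9.72, 9.70, 10.2 and 9.75. The downstream promoter of Ten-a on the X (chrX:12202906-12204005) had 11.4, 13.8, 12.1 and 14.3, with both female values above both male values. The exception among promoters was the inner start site of beat-IIb (chr3R:17247211-17248004), whose folds were 5.20 in male fru+ and 2.69 in female fru+, against 3.77 in male fru- and 3.28 in female fru-. It was the only 1 of the 34 whose folds differed by more than a factor of 1.5, and the male fru+ list was highest there. Such a spread was found at 8.36% of promoter regions of all genes.

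The remaining 2 genes were Toll-4 and Toll-9. Toll-4 had 2 peaks in every list, both outside the gene, 1 with its summit at -1043 bp from the start site (folds 11.0, 10.2, 13.3 and 12.7) and 1 downstream. Toll-9 had 1 peak in male fru+ and 1 in female fru+, against 1 in male fru- and 0 in female fru-. That region (chr3L:20361267-20361595, folds 2.43, 2.88 and 3.72) lies in the flank downstream of Toll-9 and at the promoter of the neighbouring Prim2, so no peak belonged to Toll-9 alone.

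In the stretches just before the start sites, GAGAG was more frequent than in those of other genes. It was found in the 150 bases before the outermost start site in 19 of 34 genes (55.9%, 39.5 to 71.1), against 18.1% of 13945 protein-coding genes. Among the 711 protein-coding genes of 20 kb or more whose outermost start site lay at a region of all 4 lists, the share was 35.3% (31.9 to 38.9), and it was 60.0% in the 30 genes of the families that met the same condition on the start site (42.3 to 75.4), with no condition on length. These 2 intervals do not overlap for 150 bases or for 300 bases, but for 100 bases they do (36.7%, 21.9 to 54.5, against 24.2%, 21.2 to 27.5). By family, 10 of 14 beat genes, 2 of 8 side genes, 2 of 4 Dscam genes, both teneurins and 3 of 6 Toll genes had a match. TAATTA was found in 0 of 34 (0 to 10.2), just below the 10.9% of all protein-coding genes (10.4 to 11.4), but the interval overlaps that of those 711 genes (4.08%, 2.85 to 5.80). The stretches of 3 of the 4 genes with the most GAGAG matches are shown in the direction of transcription, as examples of how the matches lie.
Ten-m, chr3L:22407864-22408013, minus strand: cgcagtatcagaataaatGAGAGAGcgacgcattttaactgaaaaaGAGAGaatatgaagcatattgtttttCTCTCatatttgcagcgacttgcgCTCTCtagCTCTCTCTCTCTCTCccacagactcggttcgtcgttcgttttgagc
beat-IIb, chr3R:17265050-17265199, minus strand: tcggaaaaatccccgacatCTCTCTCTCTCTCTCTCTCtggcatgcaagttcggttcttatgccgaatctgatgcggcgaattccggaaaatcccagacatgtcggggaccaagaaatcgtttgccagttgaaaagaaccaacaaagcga
beat-Ia, chr2L:16049815-16049964, plus strand: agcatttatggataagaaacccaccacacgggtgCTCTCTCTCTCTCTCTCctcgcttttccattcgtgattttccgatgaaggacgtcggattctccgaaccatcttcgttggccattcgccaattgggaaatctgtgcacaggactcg

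These stretches held 11, 8 and 7 matches for Ten-m, beat-IIb and beat-Ia, where matches that overlap are each counted. All 3 start sites lay at a region held by all 4 lists.

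Away from promoters the genes were long, and their regions were mostly intronic. Of the 34 genes, 25 were 20 kb or longer. Introns held 207 of the 306 regions (67.6%, 62.2 to 72.6) against 38.4% of regions within 1 kb of any gene, and promoters of any gene held 40 (13.1%, 9.75 to 17.3) against 44.8%. The intronic regions were weaker, with a median strength of 22.6, against 29.3 for intronic regions of all genes. The plot of strength against distance from the start site shows both groups.

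**Figure D1:**
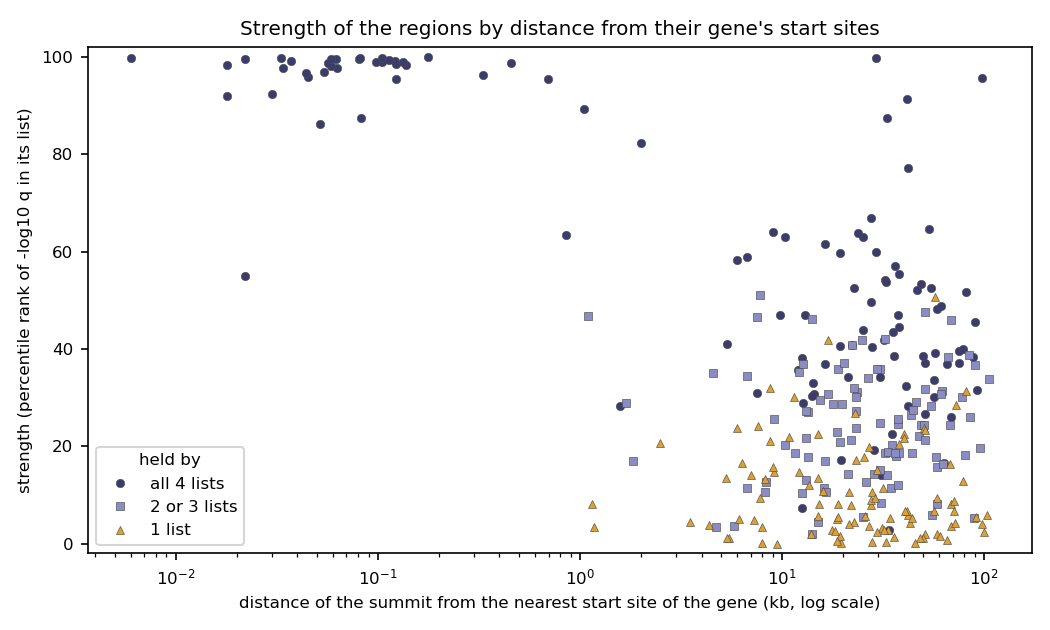
Each point is 1 of the 306 regions. The horizontal axis gives how far its summit lies from the nearest start site of the gene (kb, log scale) and the vertical axis its strength (percentile rank of -log10 q, highest over the lists). The 34 promoter regions had a median strength of 98.7 and were held by all 4 lists, and regions held by 1 list lay further out and lower.

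A region of Dscam1 far from a start site was as strong as promoters. This coding-exon region (chr2R:7352177-7352990) lay 29335 bp from the nearest start site and had 13.6-fold enrichment in male fru+ and 12.4-fold in female fru+, against 13.9 in male fru- and 13.9 in female fru-. A coding-exon region of Dscam4 (chr3L:8273927-8274707) had 8.38-fold enrichment in male fru+ and 6.79-fold in female fru+, against 5.79 in male fru- and 5.44 in female fru-. Both fru+ lists were above both fru- lists at Dscam4, and its rank was 87.4 in male fru+ and 70.3 in female fru+, against 63.3 in male fru- and 58.2 in female fru-, below the promoters' median. The strong regions at the 3' ends of beat-Ic and side-III lay at promoters of neighbouring genes, BicC and CG45084 beside beat-Ic and CG2017 beside side-III.

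Regions held by all 4 lists could still differ in fold. Outside promoters, 75 such regions had a median factor of 1.40 between the highest and the lowest list, and 21 of them (28.0%) exceeded 1.5, against 19.3% of 2584 such regions of all genes. The 75 were also weaker, with a median strength of 41.0 against 54.1, and some of the 21 lay in Ten-a on the X. Whether the shares differ was not tested. The widest spread was at an intronic region of side-II (chr2L:14943627-14944886), with 5.64-fold enrichment in male fru+ and 3.50-fold in female fru+, against 3.59 in male fru- and 2.79 in female fru-. At an intronic region of side-III (chr3R:5897808-5898185) the order was another, with 2.74 in male fru+ and 4.50 in female fru+, against 2.24 in male fru- and 2.81 in female fru-. An intronic region of beat-Ib (chr2L:15936984-15937479) had 6.39 in male fru+ and 3.93 in female fru+, against 4.68 in male fru- and 4.83 in female fru-. Male fru+ was thus highest at side-II and beat-Ib, and female fru+ at side-III.

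Counted over all 34 genes, the male fru+ list held 189 peaks, the female fru+ list 181, the male fru- list 195 and the female fru- list 211. They covered 99758 bp in male fru+ and 97083 bp in female fru+, against 99421 bp in male fru- and 108995 bp in female fru-. Without Ten-a, the only 1 of the genes on the X, the sums were 170, 144, 175 and 167 peaks. With lists cut to equal length and Ten-a kept, they were 185 and 181 in the fru+ lists of males and females, against 195 and 190 in their fru- lists. Which fru- list had more peaks thus changed with either setting. Without Ten-a the female fru+ list was lowest, at 0.862 of female fru-. The same ratio was 0.970 over 9044 autosomal genes with a peak and 0.954 over the 783 of them of 20 kb or more, which are nearer in length. The male fru+ sum was 1.18 times the female fru+ sum without Ten-a, 1.06 times over those 9044 genes and 1.08 times over those 783. The female fru+ list was also the shallowest, and the part of depth in this was not tested.

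With Ten-a set aside, the side genes had the widest gap between female fru+ and the other lists. They held 67 peaks in male fru+ and 54 in female fru+, against 68 in male fru- and 71 in female fru-. Among them side-III, the longest, had 20 in male fru+ and 14 in female fru+, against 19 in male fru- and 19 in female fru-. Next, side-VI, whose protein binds Beats of the V group, had 16, 10, 13 and 13, so the male fru+ list was highest and the female fru+ list lowest. In covered bp male fru+ was again highest (7405 bp), but male fru- was lowest (5630 bp). In side-II the numbers were 11, 13, 14 and 18, with the male fru+ list lowest in peak number. In covered bp it was highest there, with 6504, 5814, 5745 and 6334 bp in the same order. The founding member side, whose protein binds Beat-Ia, had 6, 5, 8 and 6, side-VIII had 8, 7, 7 and 9, and side-V had 3, 2, 4 and 3. The short genes side-IV and side-VII held 2 and 1 peaks in every list.

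The beat genes held 60 peaks in male fru+ and 53 in female fru+, against 58 in male fru- and 54 in female fru-. In beat-VI there were 10 in male fru+ and 6 in female fru+, against 6 in male fru- and 7 in female fru-. At beat-IIIc there were 2 in male fru+ and 3 in female fru+, against 6 in male fru- and 4 in female fru-, and at beat-IIIa 2, 3, 4 and 4, both fru+ lists being below both fru- lists. Both fru+ lists were above both fru- lists at beat-IIa, with 4, 3, 2 and 2 peaks, at beat-Vc, with 4, 3, 2 and 2, and at beat-Ib, with 9, 9, 8 and 7. In covered bp this held for beat-IIa and beat-Vc but not for beat-Ib, with 3079, 3169, 3521 and 2494 bp. The peak number of beat-VII was 4 in male fru+ and 7 in female fru+, against 6 in male fru- and 4 in female fru-, and that of beat-Ia was 5, 3, 5 and 6. The others differed by 2 peaks at most, with 6, 4, 4 and 4 at beat-IIb, 3, 1, 3 and 2 at beat-IIIb, 5, 4, 5 and 5 at beat-Ic and 3, 4, 4 and 4 at beat-IV. The numbers of beat-Va and beat-Vb were 1 and 2 in every list. Several of these genes lie close together (beat-Ic and beat-Ia are 8.26 kb apart, beat-IIIa and beat-IIIc 14.5 kb), but no region fell into the windows of 2 of the genes.

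The 4 Dscam genes held 15 peaks in male fru+ and 14 in female fru+, against 18 in male fru- and 16 in female fru-. Dscam4 had 5, 3, 7 and 6, with both fru+ lists below both fru- lists in peak number. In covered bp the order was another, with 3385, 2129, 3037 and 3151 bp, male fru+ being highest. Dscam2 had 2, 5, 3 and 2, Dscam3 had 5, 2, 4 and 4, and Dscam1 had 3, 4, 4 and 4. Among the Toll genes, Tl had 8 peaks in male fru+ and 5 in female fru+, against 6 in male fru- and 7 in female fru-. Toll-6 had 2, 1, 2 and 1, the extra male peak (chr3L:15344654-15345186) lying just downstream of the gene, and Toll-7 had 3, 3, 4 and 3. The 18w gene had only its promoter peak in every list.

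In all, 14 of the 34 genes differed by 3 or more peaks between some 2 lists, all of them 20 kb or longer. That was 14 of 25 long genes, against 25.7% of the 984 long genes with a peak and 2.62% of all 10785 genes with a peak. The long genes were not matched for length or number of peaks, so the gap between these shares may follow from either. Another 14 differed by 1 or 2 peaks and 6 had the same number in every list. Male fru+ exceeded male fru- in 10 genes, was below it in 13 and equalled it in 11. Female fru+ exceeded female fru- in 6, was below it in 17 and equalled it in 11. Male fru+ exceeded female fru+ in 17 genes and was below it in 8, and male fru- exceeded female fru- in 12 and was below it in 6. These counts need the background, given here as shares above and below over the 783 autosomal genes of 20 kb or more with a peak. The shares were 31.0% and 28.6% for male fru+ with male fru-, 19.8% and 31.5% for female fru+ with female fru-, 38.6% and 21.6% for male fru+ with female fru+, and 27.8% and 21.1% for male fru- with female fru-. In the last 3 pairs these long genes leaned to the same side. These comparisons share lists with each other. The plot of peak number by gene shows every value.

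**Figure D2:**
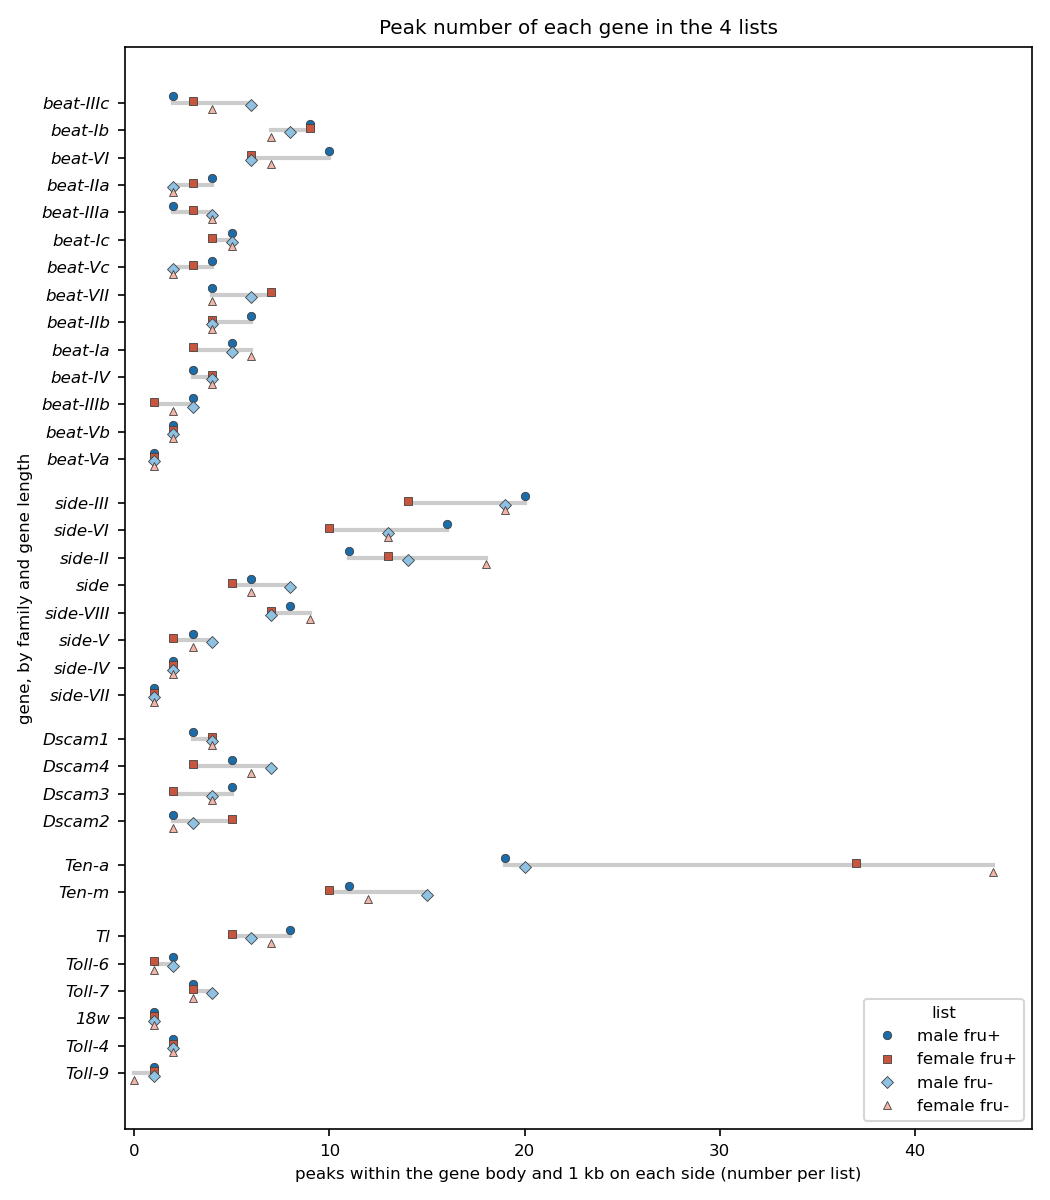
Peak number of each gene (horizontal axis, peaks in the gene body and 1 kb on each side) in the 4 lists, with genes ordered by family and length. Grey lines join the lowest and the highest list. Ten-a, with 19 peaks in male fru+ and 37 in female fru+, against 20 in male fru- and 44 in female fru-, spans the widest range.

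Joining peaks that overlapped by at least 1 bp into regions showed which lists held each. All 4 lists held 111 of the 306 regions (36.3%, 31.1 to 41.8), against 60.1% of regions of all genes. Outside promoters, where most regions of these genes lie, the shares were 28.2% (23.1 to 33.9) and 37.6% (36.4 to 38.7), and these intervals do not overlap. A smaller share of regions was thus common to all lists than at other genes, outside promoters as well. The regions of these genes were also weaker, with a median strength of 25.8 against 48.3. Among regions of strength above 50 the shares were near each other, with 62 of 64 in all 4 lists (96.9%, 89.3 to 99.1) against 96.6%. Strength is the highest rank over the lists that hold a region, so this cut favours regions in several lists. As nearly all regions above it were in all 4 lists at any gene, it cannot show whether these genes differ.

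**Figure D3:**
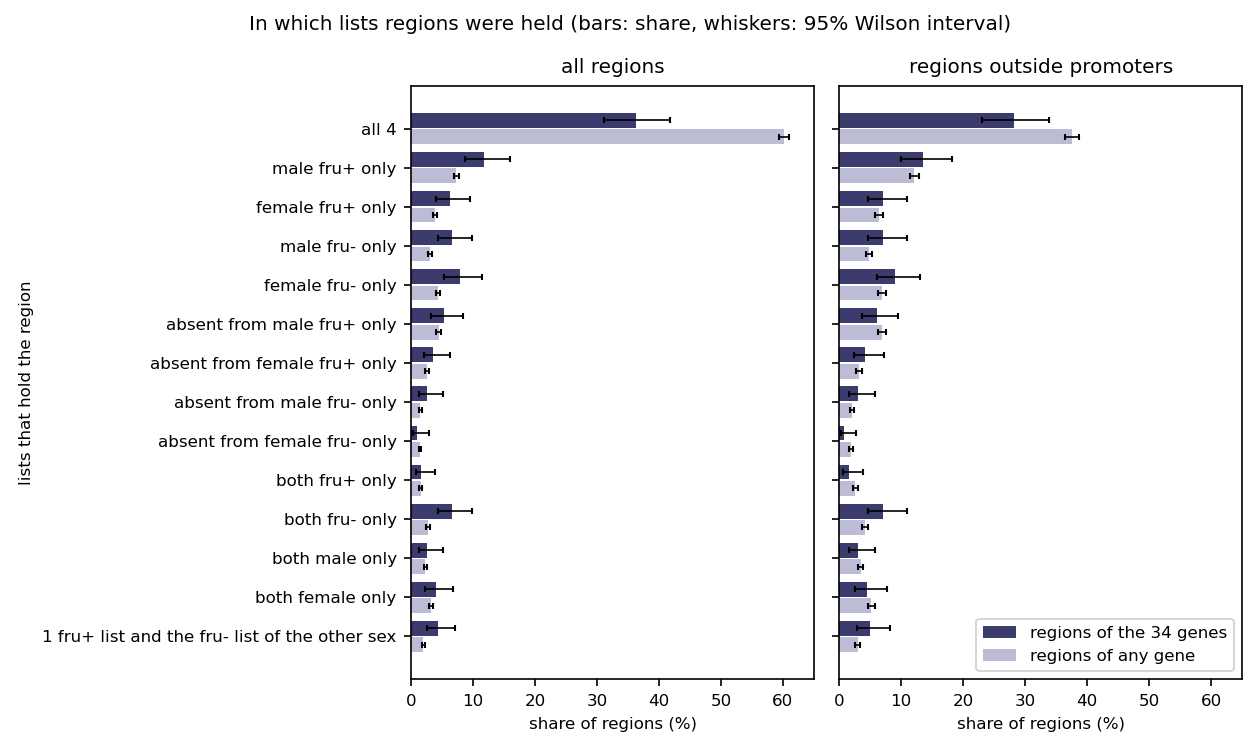
Share of regions (horizontal axis, %) by the lists that hold them, for the 34 genes (dark) and for regions within 1 kb of any gene (light). Whiskers are 95% Wilson intervals. Left, all regions; right, regions outside promoters, where 28.2% of the regions of the 34 genes and 37.6% of those of any gene were in all 4 lists.

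The male fru+ list alone held 36 regions (11.8%, 8.62 to 15.9), against 7.27% of regions of all genes. The other single-list counts were 19 in female fru+ (6.21%, against 3.79%), 20 in male fru- (6.54%, against 3.04%) and 24 in female fru- (7.84%, against 4.28%). Outside promoters the male fru+ share was 13.5% (9.94 to 18.2), against 12.1% (11.4 to 12.9), so it was near that of other genes. The female fru+ share was then 7.14% (against 6.38%), the male fru- share 7.14% (against 4.77%) and the female fru- share 9.02% (against 6.88%). The intervals overlapped in each case. Regions absent from male fru+ only numbered 16 (5.23%, against 4.41%), those absent from female fru+ only 11 (3.59%, against 2.56%), those absent from male fru- only 8 (2.61%, against 1.45%) and those absent from female fru- only 3 (0.980%, against 1.43%). Outside promoters the share absent from male fru+ only was 6.02% (3.74 to 9.55), against 6.88% (6.30 to 7.50), so it was not raised there. The other absences had 4.14%, 3.01% and 0.752% there, against 3.15%, 2.06% and 1.90%, in the order above. Held by pairs of lists were 5 regions in both fru+ lists (1.63%, against 1.52%), 20 in both fru- lists (6.54%, 4.27 to 9.88, against 2.69%), 8 in both male lists (2.61%, against 2.28%) and 12 in both female lists (3.92%, against 3.24%). The other 13 combined a fru+ list with the fru- list of the other sex (4.25%, 2.50 to 7.13, against 1.90%, 1.67 to 2.15). For the share held by both fru- lists alone, the interval lay above that of other genes (2.42 to 2.99). This was not particular to that pattern. The same held for male fru+ alone (against 6.83 to 7.74) and male fru- alone (4.27 to 9.88, against 2.75 to 3.35). It also held for female fru- alone (5.33 to 11.4, against 3.94 to 4.65) and for the 13 regions above. These intervals count each region separately, although some of the 20 regions of both fru- lists lay in the same gene, with 3 in Ten-a. Whether any of these shares differs from that of other genes was not tested. Outside promoters the share held by both fru- lists alone was 7.14% (4.62 to 10.9) against 4.13% (3.68 to 4.62), and the intervals meet there.

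Taken in pairs, the lists disagreed more at these genes than at all genes, but not in every place within genes. Of 251 regions held by male fru+ or male fru-, 118 were in 1 list only (47.0%, 40.9 to 53.2), against 25.1% for all genes. The share was 47.5% (41.3 to 53.8) between male fru+ and female fru+, against 28.3%. Between female fru+ and female fru- it was 39.3% (33.3 to 45.5), against 20.8%, and between male fru- and female fru- it was 35.8% (30.0 to 41.9), against 20.2%. Outside promoters the shares were 54.5%, 56.4%, 45.3% and 41.5% for the same 4 pairs, against 43.5%, 47.7%, 35.1% and 34.5%, and the intervals overlapped only for the pair of fru- lists (35.0 to 48.4, against 33.2 to 35.7). Within introns they overlapped for 3 of the 4 pairs, all but female fru+ with female fru- (46.6%, 39.1 to 54.3, against 36.2%, 34.7 to 37.7). Above a strength of 50, 2 of 64 regions differed in each pair with male fru+ (3.12%) and 0 of 63 in each of the other pairs, which allows a share of up to 5.75%. The shares at all genes were then 1.70%, 2.59%, 1.00% and 1.60% for the same 4 pairs, each inside the interval of these genes. Male fru+ and male fru- differed about evenly, with 56 regions in male fru+ only and 62 in male fru- only, and so did all genes, with 1398 and 1382. In the female pair 33 were in female fru+ only and 62 in female fru- only (13.6% and 25.6%), and at all genes 958 and 1309 (8.79% and 12.0%). On the autosomes 61 were in male fru+ and not in female fru+, against 35 the other way, and all genes again leaned to that side with 1488 against 950.

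The 36 regions of the male fru+ list alone lay in 20 genes, all of them 20 kb or longer, so that 20 of 25 long genes had at least 1, against 37.7% of long genes with a peak. A gene with more regions has more room for at least 1, and the long genes were not matched for length or region number. Per region outside promoters the share was near that of all genes (13.5% against 12.1%). Their folds ran between 1.93 and 4.62 with a median of 2.57, their median strength was 10.6 and their median width 276.5 bp. None was at a promoter, 27 were in introns, 6 in coding exons, 2 in 3' UTRs and 1 in a flank. By family 14 lay in beat genes, 14 in side genes, 4 in Dscam genes, 2 in teneurins and 2 in Toll genes.

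The strongest was in the 3' UTR of side (FBgn0016061, chr3R:27379726-27380340), with a fold of 4.62 in male fru+ and a strength of 50.6. No peak of female fru+ came within 6774 bp of it, while male fru- and female fru- had peaks 1000 bp and 894 bp away. The second was in an intron of beat-Ic (FBgn0028644, chr2L:16017065-16017707), with a fold of 4.11 and no peak of the other lists within 10166 bp. The third was in an intron of beat-Ib (FBgn0028645, chr2L:15953586-15953835), with a fold of 3.48 and the nearest peak of another list 3428 bp away. All 3 folds were above the lowest fold that the other lists reached at their genome background, namely 2.10 (female fru+), 1.96 (male fru-) or 2.01 (female fru-). These regions were picked as the strongest, and the local background at them was not compared. Whether depth or the threshold left them out of the other lists was not tested. The gene with most such regions was side-VI with 5, followed by side-III with 4 and beat-VI with 3. Dscam3, side, side-VIII, beat-Ib, beat-IIa, beat-IIb and Tl had 2 each, and beat-IIIb, beat-Ia, beat-VII, beat-Ic, side-V, Dscam2, beat-Vc, Dscam4, Ten-a and Ten-m had 1 each.

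The 16 regions absent only from male fru+ had a median strength of 32.1, the same as the 32.1 of such regions at all genes, and folds between 2.20 and 5.23. Strength is the highest rank over the lists that hold a region, so it is read here over 3 lists, and over 1 for regions of male fru+ alone, which had 13.3 at all genes. The 16 lay in 13 genes, again all long, which is 13 of 25, against 28.8% of long genes with a peak, and 9 of those genes also had a region in male fru+ alone. Regions in male fru+ alone lay in 20 of the same 25 genes, and the overlap of both kinds over all genes was not counted. Length and region number were again not matched. Of the 13, side-II, side-VI and Ten-a had 2 each. In introns were 11, in coding exons 4 and in a flank 1. The most evenly strong was in a coding exon of Dscam2 (FBgn0265296, chr3L:7182057-7182606), with 3.50-fold enrichment in female fru+, 3.88-fold in male fru- as well as 4.01-fold in female fru-, and no male fru+ peak within 4068 bp. An intronic region of Dscam1 (FBgn0033159, chr2R:7373897-7374321) had 3.61, 5.23 and 4.25 in the same lists, with no male fru+ peak within 4530 bp. An intronic region of Tl (FBgn0262473, chr3R:26817730-26818135) had 3.39, 3.20 and 2.87, with none within 3666 bp. Another intronic region of Tl, chr3R:26821802-26822118, was held by male fru+ alone at a fold of 2.93.

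Regions absent from 1 other list were fewer. Female fru+ alone lacked an intronic region of side-V (chr2R:23187409-23187853), with 2.69-fold enrichment in male fru+, 2.82-fold in male fru- as well as 2.76-fold in female fru-. It also lacked intronic regions of Ten-m (chr3L:22346809-22347298, 2.34, 2.89 and 2.97 in the same lists) and Dscam3 (chr3R:17492875-17493307, 2.64, 3.09 and 3.75). Male fru- alone lacked intronic regions of Ten-m (chr3L:22339089-22339615, 3.30 in male fru+, 2.31 in female fru+ and 2.62 in female fru-), side-II (chr2L:14920930-14921405, 2.63, 2.69 and 2.79) and Ten-a (chrX:12319930-12320793, 2.64, 3.73 and 2.73). Female fru- alone lacked the region beside Toll-9 and intronic regions of side-VI (chr3R:11040254-11040679, 2.48 in male fru+, 3.19 in female fru+ and 2.36 in male fru-) and side-VIII (chr2R:20445987-20446743, 3.43, 2.24 and 2.09).

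The regions of the other single lists were weaker than the first ones of male fru+, their strength being at most 23.8 (female fru+), 23.3 (male fru-) or 30.1 (female fru-). The female fru+ list alone held intronic regions of beat-IIIc (chr2L:17210038-17210241, fold 3.21), beat-IIa (chr3R:17352231-17352524, 3.21) and Ten-a (chrX:12232444-12232655, 3.08). The male fru- list alone held intronic regions of side (chr3R:27386317-27386514, 2.91) and beat-IIIc (chr2L:17249721-17249975, 3.02) and a coding-exon region of side-III (chr3R:5891618-5892277, 2.79), the last 122 bp from a peak of another list. The female fru- list alone held intronic regions of Ten-a (chrX:12241059-12241690, 3.45, and chrX:12087906-12088134, 2.55) and beat-Ia (chr2L:16058482-16058790, 3.05). Among regions that combined a fru+ list with the fru- list of the other sex, the strongest was an intronic region of Tl (chr3R:26811064-26811531), with 3.48 in male fru+ and 2.93 in female fru-. Next were intronic regions of Dscam4 (chr3L:8264402-8265605, 3.12 in male fru+ and 2.38 in female fru-) and side (chr3R:27391140-27391516, 3.26 in female fru+ and 2.44 in male fru-).

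**Figure D4:**
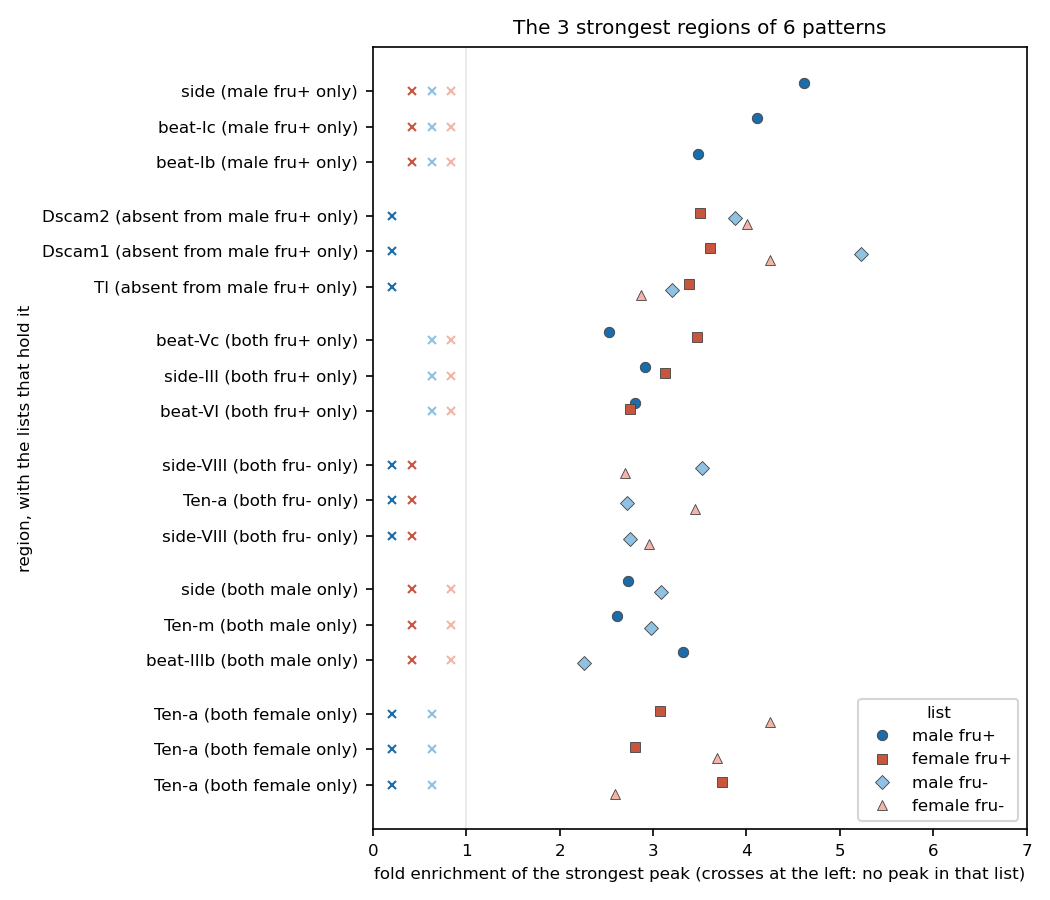
Fold enrichment (horizontal axis) of the strongest peak of each list in the 3 strongest regions of 6 patterns, with 1 symbol per list. Crosses at the left mark lists without a peak. The side region held by male fru+ alone reached 4.62, and the Dscam1 region absent from male fru+ reached 5.23 in male fru-.

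Regions shared by both fru+ lists and missing from both fru- lists were few. The strongest lay inside beat-Vc (chr3R:12767595-12768134), with 2.53-fold enrichment in male fru+ and 3.47-fold in female fru+ and no fru- peak within 14834 bp, at the promoter of the nested lncRNA:CR44232. The side-III intron at chr3R:5946279-5946466 had 2.91 in male fru+ and 3.13 in female fru+, with the nearest fru- peak 450 bp away. The beat-VI intron at chr3R:28429416-28429996 had 2.81 in male fru+ and 2.75 in female fru+. Conversely, both fru- lists alone shared regions that included 2 intronic regions of side-VIII (chr2R:20475268-20475544, folds 3.52 in male fru- and 2.70 in female fru-, and chr2R:20447444-20447876, 2.75 and 2.96) and 1 intronic region of Ten-a that overlaps lncRNA:CR43960 and lncRNA:CR43961 (chrX:12066501-12067293, 2.72 and 3.45). The fru- populations include Kenyon cells, and the 4 Kenyon cell marker genes held 24 peaks in male fru+ and 24 in female fru+, against 25 in male fru- and 27 in female fru-. What part Kenyon cells had in the fru- regions was not tested.

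Both male lists alone held 8 regions. The strongest lay upstream of side (chr3R:27438449-27438985), with 2.73-fold enrichment in male fru+ and 3.09-fold in male fru-, within the 3' UTR of CG44290 and 626 bp from the nearest female peak. The next was the Ten-m intron at chr3L:22341121-22341578, with 2.61 in male fru+ and 2.98 in male fru- and no female peak within 1589 bp. A region of beat-IIIb (chr2L:16990843-16991103) had 3.32 in male fru+ against 2.26 in male fru-.

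The 12 regions of both female lists alone were nearly all in Ten-a, which held 11 of them, with 1 in Ten-m. Ten-a (FBgn0267001, chrX:12043698-12335214) spans 292 kb, the longest of the 34 genes. It had 19 peaks in male fru+ and 37 in female fru+, against 20 in male fru- and 44 in female fru-, which covered 9512 bp, 18375 bp, 9013 bp and 23381 bp. Both female lists thus held about double the number of the male lists, whatever the fru status. Of 37 Ten-a regions held by male fru+ or female fru+, 18 were in both, 18 in female fru+ only and 1 in male fru+ only. Of 44 held by male fru- or female fru-, 19 were in both, 25 in female fru- only and 0 in male fru- only. The strongest of the female regions were chrX:12178839-12179221, with 3.08-fold enrichment in female fru+ and 4.25-fold in female fru-, and chrX:12250035-12250583, with 2.81 and 3.69.

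Other genes of the X had the same direction. Males have 1 X and females a pair, and the deposited lists were not corrected for it. The male fru+ number of Ten-a was 0.514 of the female fru+ number, and the male fru- number 0.455 of the female fru- number. Over the 38 protein-coding X genes with 10 or more peaks in the female fru- list the median ratios were 0.490 (0.200 to 1.12) and 0.456 (0.167 to 1.18), with 36 of 38 genes below 1 in either comparison, so Ten-a lay near the middle in both. Over 75 autosomal genes chosen in the same way both medians were 1.00. Both sets were chosen on the female fru- list. The difference by sex at Ten-a and the dose of the X cannot be told apart.

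**Figure D5:**
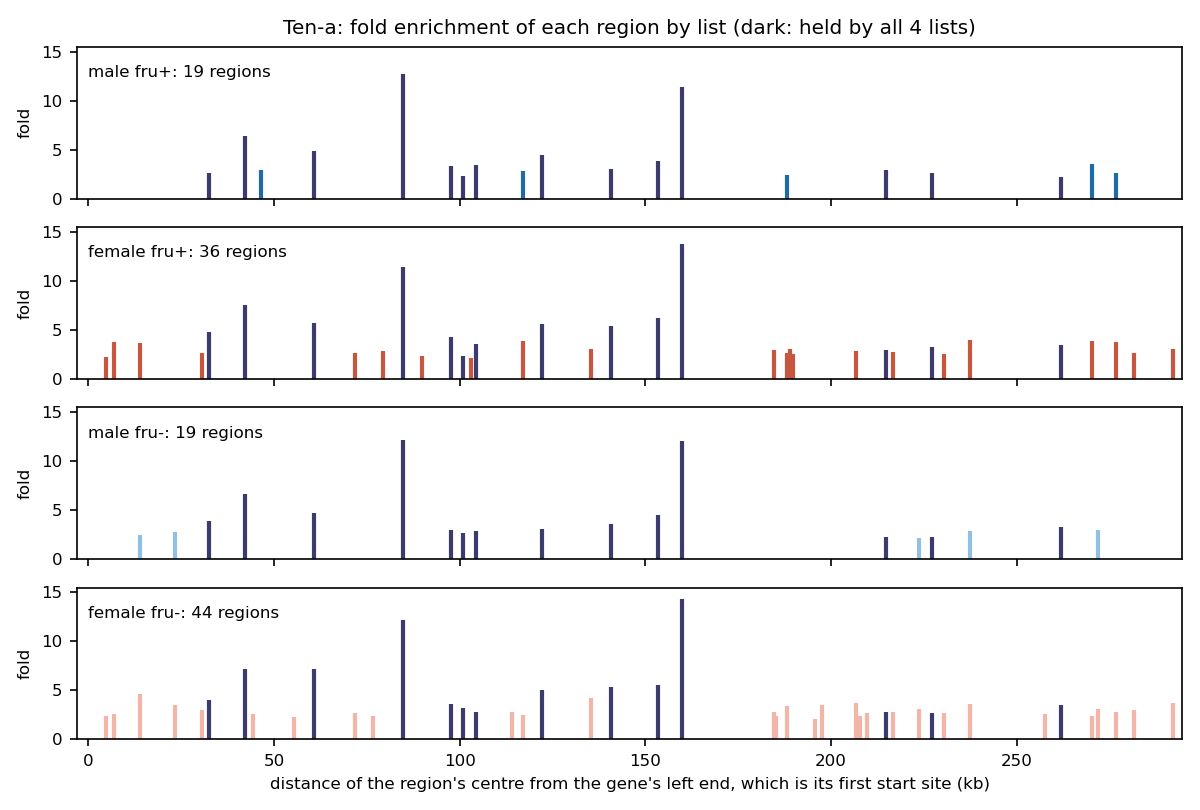
Fold enrichment (vertical axis) of the Ten-a regions in each list by distance from the first start site of the gene (horizontal axis, kb). Bars stand at the centre of each region, dark for the 14 held by all 4 lists and coloured for the others. Male fru+ and male fru- each show 19 regions, whereas female fru+ shows 36 and female fru- 44.

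The autosomal teneurin, Ten-m (FBgn0004449, chr3L:22293044-22407863), had 11 peaks in male fru+ and 10 in female fru+, against 15 in male fru- and 12 in female fru-. Of its 20 regions 7 were in all 4 lists, 5 in male fru- alone, 2 in female fru- alone and 1 in male fru+ alone. The male fru- list had the highest peak number at Ten-m and the most regions held by 1 list alone.

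Other genes of these pathways were counted in the same way. Of 23 such genes, 18 had a peak in some list, 12 had the same number in all 4 (those at 0 included) and 3 differed by 3 or more. All 6 genes of the intracellular Toll pathway (tub, pll, Myd88, cact, dl and Dif) had peaks in every list, 12 in male fru+ and 12 in female fru+, against 13 in male fru- and 12 in female fru-. Of the 6 Toll ligand genes, only spz and spz3 had peaks in every list, spz5 had 1 in male fru- alone, and spz4, spz6 and NT1 had none. Tollo and MstProx had no peak and Tehao had 1 in each female list. Of the 8 wiring partners the 3 that differed by 3 or more were caps, a leucine-rich repeat protein of synaptic targeting, with 4, 6, 5 and 7 peaks, Fili, with 7, 6, 4 and 4, and Con, with 11, 13, 14 and 13. Fili was the only 1 of the 3 with both fru+ lists above both fru- lists. The cadherin gene CadN had 14 peaks in male fru+ and 14 in female fru+, against 13 in male fru- and 12 in female fru-, and trn and Pak had 1 in every list.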

How the data were processed

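ATAC-seq was done on sorted central brain neurons, 4 populations with 2 replicates each (8 samples). According to the methods of the study, adapters were trimmed with cutadapt, reads aligned to dm6 with Bowtie2, duplicates marked with Picard and removed with SAMtools, and peaks called with MACS2 at an FDR of 0.001. Versions were not given in the sources used here. The authors deposited 1 peak list per population. Its fold enrichment is a deposited ratio of summit pileup to local background, its p and q values were deposited on a -log10 scale, its score is the authors' rescaled -log10 q value, and the authors' last column gives the summit offset. A shift of reads to the Tn5 cut site was not described. Reads were not analysed here, so depth is known only through the peak lists.

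Genes came from Ensembl release 115 (BDGP annotation 6.54, dm6 coordinates), without transposable elements. Sequences were read from the RefSeq dm6 genome. Peaks overlapping a gene body plus 1 kb by at least 1 bp were counted per list, and their union gave the covered bp. Peaks of the 4 lists overlapping by at least 1 bp formed regions. Genome background was recovered from fold and p-value of each peak. A promoter is within 50 bp of a start site. Counts were checked with bedtools 2.31.1 (0 disagreements over 34 genes) and merging was tested on simulated data. Shares carry 95% Wilson intervals. The members and lists were chosen with earlier results of these data known. Every member was counted. Regions were named when among the 3 strongest of a pattern (for absences, ranked by the weakest of the 3 lists), or the strongest shared promoter of a family. The Dscam1 and Dscam4 exon regions, the other regions of all 4 lists, the second Tl region and the Toll-6 region were chosen after their values were seen.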

Additional observations from a re-analysis of the deposited data

Results flagged for a closer look

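In 3 genes the fru+ and fru- lists differed in opposite directions in the sexes, by 2 or more peaks each way. With 1 list per population this difference was not tested. How many genes outside these families meet the same rule was not counted, so the 3 cannot be called particular to them. In side-VI, male fru+ had 16 peaks and male fru- 13, while female fru+ had 10 and female fru- 13, so that the male difference minus the female one was 6 peaks. In Tl, male fru+ had 8 and male fru- 6, while female fru+ had 5 and female fru- 7, a difference of 4. In beat-VII, male fru+ had 4 and male fru- 6, while female fru+ had 7 and female fru- 4, a difference of -5.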

How the results depend on the processing

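Of 189 alternative values for 27 results, 161 stayed within 1.5 times the reported count or within the interval of the reported share, and 28 did not. Counting the gene body alone, lists of equal length, summits inside the window and autosomes alone moved none past these limits, although with lists of equal length male fru- held more peaks (195) than female fru- (190), against 195 and 211 as reported. Keeping only regions of strength above 50 moved every pattern: all 4 lists held 62 regions, male fru+ alone 1, absent from male fru+ alone 1 and every other pattern counted 0. Discordance was then 3.12% between male fru+ and male fru-, 3.12% between male fru+ and female fru+, and 0% in the other pairs. Regions absent from female fru- alone numbered 6 with 5 kb flanks, 6 with summits matched within 250 bp and 5 when absence also had to hold within 250 bp, against 3. Regions of both fru+ lists numbered 3 at a -log10 q of at least 5, against 5. The following alternatives were chosen after seeing the data. Without Ten-a, regions of female fru- alone numbered 14, those absent from male fru- alone 4 and those of both female lists 1. Outside promoters, discordance was 54.5% between male fru+ and male fru- and 56.4% between male fru+ and female fru+. GAGAG was present in 35.3% of the genes over 100 bases and in 76.5% over 300 bases. The causes were not tested beyond what each setting removes. No paired analysis was possible because each population has 1 peak list, and for the same reason no replicate could be left out. Most regions that differed were weak, so a missing peak means only that none passed the threshold at that depth.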
